A study of Rattus norvegicus with 30 samples.

Results

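The mitochondrial carriers of the Slc25 family were followed through the left ventricle of rat hearts that had been perfused outside the body or frozen without perfusion. The members were chosen by name, as every gene whose rat symbol is Slc25a and a number. The rat annotation holds 49 such genes, of which 39 were matched to at least 1 array probe and 31 were bright enough to be tested, out of 18333 genes tested on the array. A gene was tested when its brightest probe was well above background, by the scanner software's own flag, on at least 4 of the 5 arrays of some group.

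The hearts came from male Sprague Dawley rats aged 16 to 18 weeks, in 6 groups of 5 arrays. Some rats had eaten a high-sucrose diet from Research Diets for 8 to 10 weeks, which per the labels was given to bring on insulin resistance, and the others ate LabDiet chow. Hearts were taken under chloral hydrate. Within each diet, one group was perfused with 25 mmol/L glucose, one with 25 mmol/L mannitol as the osmotic control, and one was not perfused. All perfused hearts beat in the working mode at normal temperature and oxygen for 60 min, after excision into ice-cold buffer, in a buffer that also held propionate at 2 mmol/L, acetoacetate at 1 mmol/L and hydroxybutyrate at 10 mmol/L. The non-perfused hearts were excised into the same cold buffer and dissected at once, so a perfused heart differed from them by the whole procedure and not by the buffer alone. Every value is from ventricular tissue of mixed cell types.

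Slc25 proteins sit mostly in the inner mitochondrial membrane and exchange small solutes between cytosol and matrix. In the heart they carry ADP in and ATP out, and bring in phosphate, acylcarnitines for fatty acid oxidation and the reducing equivalents of the malate-aspartate shuttle. Other members move citrate, amino acids, nucleotides, cofactors and iron.

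Slc25a25 and Slc25a1 were called higher with perfusion in all 4 comparisons below, and Slc25a33 had the next largest called rise. The 250 bases before the annotated start of each are printed first, 5′ to 3′ on the gene's own strand, from RefSeq on build GRCr8. They were picked after the values were seen, because the 3 genes had the largest called rises, and capitals mark the full cAMP response element TGACGTCA, or in Slc25a1 its shorter core TGACG. The Slc25a25 window is chr3:36116582-36116831 on the minus strand, that of Slc25a1 is chr11:96559804-96560053 on the plus strand, and that of Slc25a33 is chr5:165502974-165503223 on the minus strand.
Slc25a25: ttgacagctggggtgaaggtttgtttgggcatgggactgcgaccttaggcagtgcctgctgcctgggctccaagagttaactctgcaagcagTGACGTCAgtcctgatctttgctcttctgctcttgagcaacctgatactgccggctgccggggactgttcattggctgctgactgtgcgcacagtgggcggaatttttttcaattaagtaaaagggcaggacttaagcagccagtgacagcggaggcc
Slc25a1: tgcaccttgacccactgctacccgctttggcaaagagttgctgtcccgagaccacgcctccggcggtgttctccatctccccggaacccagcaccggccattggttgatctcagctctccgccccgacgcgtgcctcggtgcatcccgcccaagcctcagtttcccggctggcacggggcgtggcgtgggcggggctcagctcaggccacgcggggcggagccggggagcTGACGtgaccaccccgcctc
Slc25a33: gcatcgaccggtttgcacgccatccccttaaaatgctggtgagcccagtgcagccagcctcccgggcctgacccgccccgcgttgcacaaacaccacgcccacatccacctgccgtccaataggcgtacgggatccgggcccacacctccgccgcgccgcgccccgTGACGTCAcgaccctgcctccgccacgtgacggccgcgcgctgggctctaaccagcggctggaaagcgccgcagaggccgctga

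The full element began at position -158 relative to the annotated start in Slc25a25 and at -84 in Slc25a33, and the core in Slc25a1 began at -20. Among 33465 promoter windows of this length, 1.59% held TGACGTCA on either strand, and among the 26 tested members with 1 window in the table, only Slc25a25 and Slc25a33 did. The core TGACG, which every full element contains, was in 18.2% of all windows and in 7 of the 26 members. Besides the 3 printed, these were Slc25a3, Slc25a10, Slc25a16 and Slc25a38, none of which was called with perfusion. The window of Slc25a29, which was called higher in 1 comparison, held neither TGACG nor TGACGTCA. In all, 12 motifs were searched on both strands. The others were TGANTCA of AP-1, the E-box CACGTG, the nuclear receptor element AAAGGTCA, the CArG box, GCGNGGGCG of EGR factors, the sterol element TCACNCCAC, the CCAAT box, CCGGAAG of ETS factors and the elements of NRF1 and YY1. GCGNGGGCG was in 4.29% of all windows and in 4 of the 26 members, Slc25a1, Slc25a10, Slc25a16 and Slc25a29. CACGTG was in 5.59% of all windows and in 2 of the 26 members, Slc25a33 and Slc25a51, and in Slc25a33 it overlaps a second TGACG. The CCAAT box was in 34% of all windows and in 14 of the 26 members. Among these were Slc25a25, Slc25a1, Slc25a33 and Slc25a29, each called higher at least once, and Slc25a35, which was called lower. The rest were not called with perfusion at their brightest probe. The element of ETS factors was in 7.27% of all windows and in 6 of the 26 members, none of them called with perfusion. Slc25a46, which was called lower with perfusion, had no window to search. All these matches describe letters in a window, and binding was not measured.

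All values below are log2 signals relative to the 75th percentile of the same array, so 0 is the level of that percentile, and a difference of 1 is a doubling of the normalized signal. A gene was called when limma's Benjamini-Hochberg adjusted p, over all genes tested, was under 0.05. Every adjusted p below is from that fit, unless another probe or setting is named. The labels call the arrays of a group biological replicates. Levels of different probes are not set against each other. In bulk tissue, fewer cells of a type and less RNA per cell cannot be told apart.

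Some facts of the array set touch these results. Between 48.8% and 75.4% of probes were well above background per array, and 4 arrays had noisy negative controls, namely sucrose mannitol replicate 5, replicates 1 and 5 of the sucrose non-perfused hearts, and replicate 2 of the chow non-perfused hearts. The arrays lay on 5 slides, 4 of which carried all 6 groups, and sucrose mannitol replicate 1 lay alone on the other. Row 1 of the slides held every non-perfused and every chow mannitol array, and row 2 held every glucose array and 4 of the 5 sucrose mannitol arrays. Row and group therefore cannot be told apart when glucose hearts of either diet are set against non-perfused hearts, or chow glucose against chow mannitol hearts. They nearly coincide when sucrose mannitol hearts are set against non-perfused or chow mannitol hearts. The same holds in the interactions of diet with the mannitol response and of diet with glucose against mannitol. In the glucose difference averaged over diets and the diet difference averaged over states, row and group coincide in part. Chow mannitol against non-perfused hearts and the non-perfused diet comparison lay within row 1, the glucose diet comparison lay within row 2, and sucrose glucose against sucrose mannitol hearts lay in row 2 but for 1 array. All 9 cardiomyocyte markers were tested, and their summed linear signal, in units of each array's 75th percentile, was 3010 to 5300 in perfused hearts and 3920 to 5620 in non-perfused hearts. The sum of the 7 tested red cell markers was 5.79 to 77.1 in perfused hearts, against 428 to 691 in non-perfused hearts, with every perfused heart below every non-perfused heart. That list has 13 markers, 10 with a probe and 7 tested, and 5 of the 7 fell in each perfusion comparison, and Rhag was not well above background on any array. Of 6 tested blood leukocyte markers 3 fell and 1, Ptprc, rose in each of the 4 comparisons (by 0.49 to 0.57), and their summed signal overlapped, at 0.438 to 0.713 in perfused hearts and 0.537 to 0.888 in non-perfused hearts. Of 4 tested platelet markers 2, 1, 3 and 3 fell. Of 5 tested endothelial markers only Cldn5 rose, by 1.45 to 2.07, in all 4 comparisons, and the summed signal was 30.8 to 47 in perfused hearts and 30.8 to 41.1 in non-perfused hearts. The part of these shifts in the values of the carriers was not tested.

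Perfusion moved a small part of the family, and 1 member by much more than the rest. Slc25a25 and Slc25a1 rose in all 4 comparisons with the non-perfused hearts of the same diet, Slc25a46 fell in 3, and Slc25a33, Slc25a29, Slc25a35 and Slc25a5 were each called in 1. In sucrose hearts 4 of 31 members were called with glucose buffer, where 8.68% of all tested genes were called. Of these 3 were higher, where 5.54% of genes were, and 1 was lower, where 3.14% were. At an unadjusted p under 0.05 there were 8 members, where 20.4% of genes passed. With mannitol buffer 5 members were called in sucrose hearts, against 11.2% of genes, with 2 higher (genes 5.53%) and 3 lower (genes 5.67%). In chow hearts 3 members were called with glucose, against 9.5% of genes, with 3 higher (genes 5.47%) and 0 lower (genes 4.04%). With mannitol 3 members were called in chow hearts, against 8.49% of genes, with 2 higher (genes 4.83%) and 1 lower (genes 3.65%). These shares were near those of all genes. The median member difference was -0.02, -0.04, 0.01 and 0.04 in the same order of comparisons, beside -0.03, -0.04, -0.05 and -0.01 for all tested genes. Over the 4 comparisons 7 of 31 members were called at least once, where 16.9% of all genes were, and 2 of 31 were called higher in all 4, where 3.24% were. The 4 comparisons share the non-perfused hearts of each diet and are not independent.

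**Figure D1:**
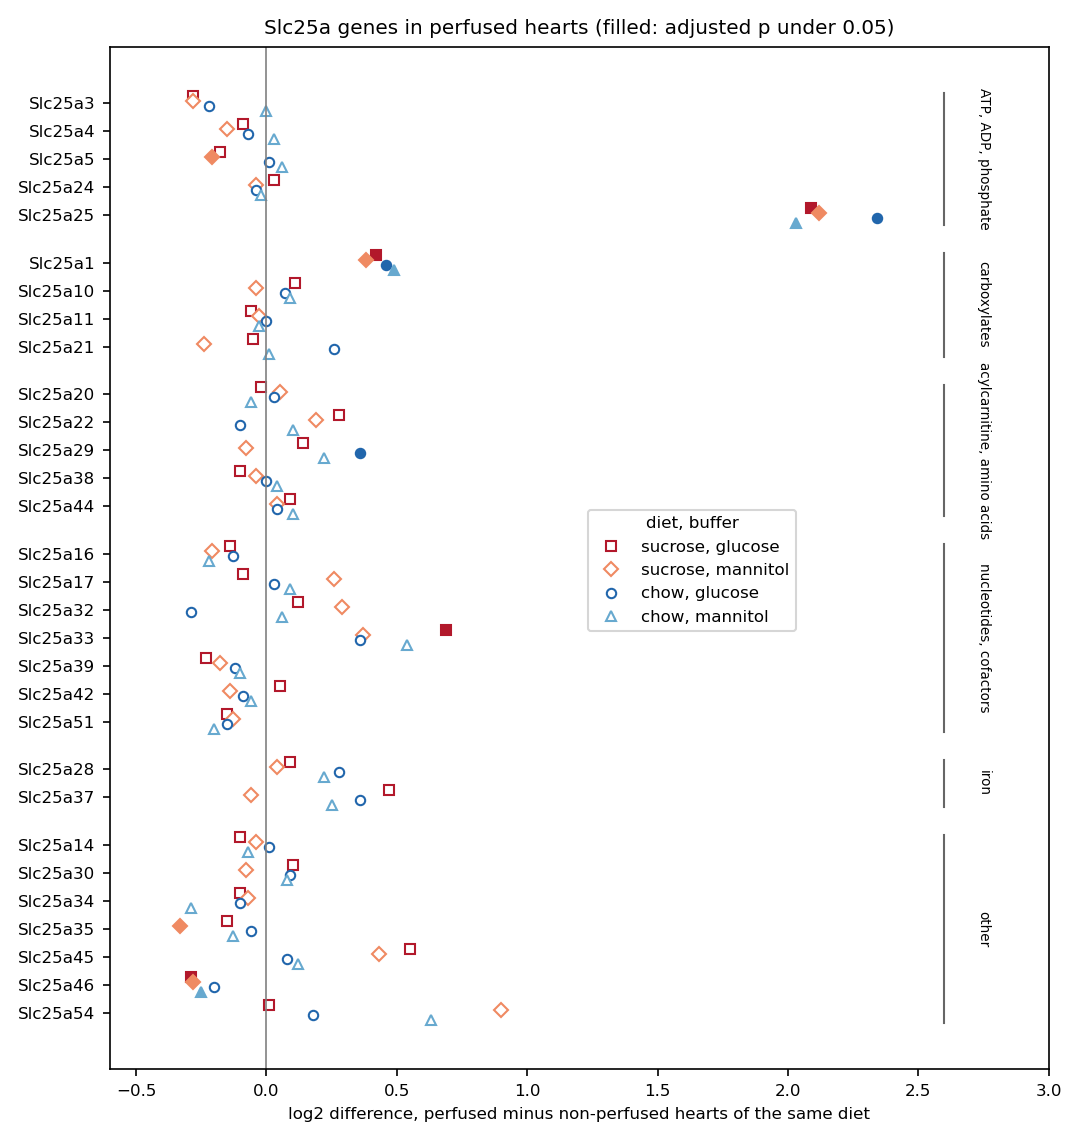
Log2 difference of perfused minus non-perfused hearts of the same diet (x axis) for 30 tested Slc25a genes (y axis, by role), with a symbol for each diet and buffer, filled where the adjusted p was under 0.05. Slc25a25 sits between 2.03 and 2.34 in all 4 comparisons, while the 23 drawn members called in none lie between -0.29 and 0.90.

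Slc25a25 encodes a carrier that exchanges ATP-Mg for phosphate and is switched on by calcium on the cytosolic side, and so sets the adenine nucleotide pool of the matrix. Its log2 signal in sucrose hearts was 3.60, 3.14, 2.80, 3.16 and 2.69 with glucose and 3.33, 2.90, 3.17, 3.12 and 3.05 with mannitol, against 1.22, 1.15, 0.83, 0.93 and 0.81 without perfusion. The chow hearts had 3.29, 3.29, 3.26, 3.86 and 3.13 with glucose and 3.07, 3.24, 2.91, 3.34 and 2.71 with mannitol, against 0.91, 0.96, 1.27, 1.03 and 0.99 without perfusion. All 20 perfused hearts lay above all 10 non-perfused hearts.

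The rise of Slc25a25 in sucrose hearts was 2.09 ± 0.15 (SE) with glucose, a 4.26-fold higher signal at adjusted p = 8.94e-11. With mannitol it was 2.12 ± 0.15, or 4.36-fold, at adjusted p = 7.98e-11. For chow hearts the rise was 2.34 ± 0.15 with glucose, or 5.05-fold, at adjusted p = 8.57e-12. With mannitol, within row 1 of the slides, it was 2.03 ± 0.15, or 4.07-fold, at adjusted p = 2.07e-10. Computed within each of the 4 full slides, the difference was positive on all 4 in each comparison, from 1.63 to 2.83 over all of them. With slide as a fixed block the 4 differences were 2.09, 2.08, 2.34 and 2.00. The call held under all 16 other settings and in all 30 fits that left out an array.

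The other calcium-regulated ATP-Mg carrier that was tested, Slc25a24, differed by only 0.03, -0.04, -0.04 and -0.02, with sucrose glucose first, then sucrose mannitol, chow glucose and chow mannitol, the order used for every run of 4 differences below. None of these passed the test, with adjusted p from 0.886 to 0.97. Slc25a23, its close relative, had no matched probe.

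**Figure D2:**
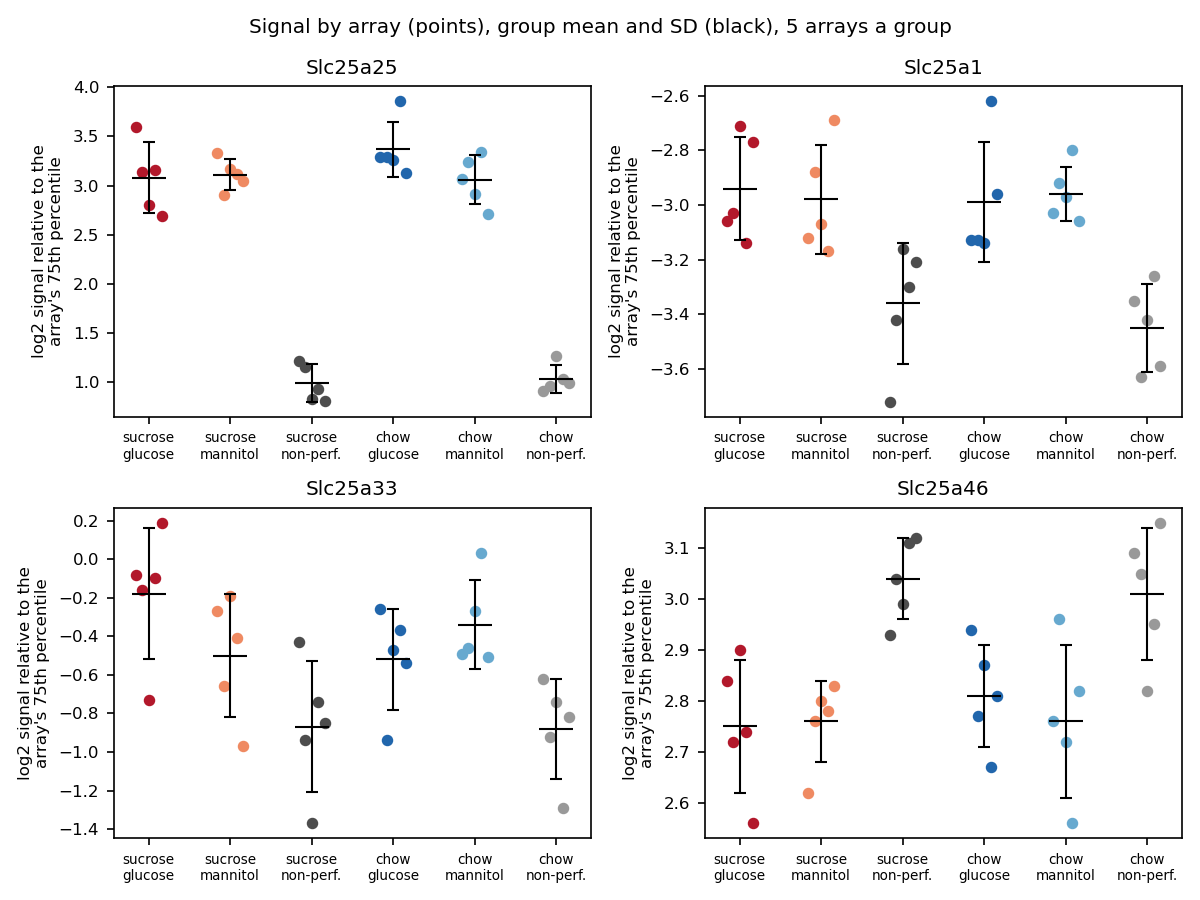
Log2 signal relative to the array's 75th percentile (y axis) on each array (points) of the 6 groups (x axis) for Slc25a25, Slc25a1, Slc25a33 and Slc25a46, with the group mean and SD in black (n = 5). For Slc25a25 all perfused hearts lie at 2.69 or above and all non-perfused hearts at 1.27 or below, whereas the Slc25a33 groups overlap in 3 of 4 comparisons.

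The remaining adenine nucleotide and phosphate carriers are the most abundant proteins of the family in heart. Slc25a4, the ADP/ATP exchanger typical of heart and muscle, averaged 5.40 ± 0.20 with glucose, 5.34 ± 0.26 with mannitol and 5.49 ± 0.09 without perfusion in sucrose hearts, and 5.52 ± 0.09, 5.62 ± 0.13 and 5.59 ± 0.12 in the same states of chow hearts (SD, n = 5). Its 4 differences, -0.09, -0.15, -0.07 and 0.03, did not pass. Slc25a5, the more widely expressed ADP/ATP exchanger, was 7.24, 7.21, 7.28, 7.10 and 7.29 in sucrose mannitol hearts, against 7.28, 7.45, 7.41, 7.57 and 7.44 in sucrose non-perfused hearts. It fell there by 0.21 ± 0.07 (SE, adjusted p = 0.0438), and the groups overlapped through 1 non-perfused array. This call did not survive several other settings: it was lost in 11 of the 30 fits that left out an array, among them those without any 1 of sucrose mannitol replicates 1 to 4 or of sucrose non-perfused replicates 2 to 5, with differences of -0.24 to -0.17 and adjusted p up to 0.123. Quantile normalization gave 0.02 (adjusted p = 0.932). A second Slc25a5 probe gave -0.03 there (adjusted p = 0.947), and 0.26, 0.46 and 0.26 in the sucrose glucose, chow glucose and chow mannitol comparisons, none of them called.

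Slc25a3, which imports phosphate for ATP synthesis and carries copper, averaged 6.91 ± 0.12 with glucose, 6.92 ± 0.12 with mannitol and 7.19 ± 0.11 without perfusion in sucrose hearts (SD, n = 5). The differences of -0.28 and -0.28 missed the threshold at adjusted p = 0.0672 and 0.0655. With slide as a fixed block the same differences passed, at adjusted p = 0.0254 and 0.0393, and over the 16 other settings the adjusted p reached 0.953 and 1. In chow hearts Slc25a3 differed by -0.22 with glucose and 0.00 with mannitol, at adjusted p = 0.169 and 0.994.

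Among the carboxylate carriers, Slc25a1, the citrate exporter that links the matrix to cytosolic acetyl-CoA, rose in all 4 comparisons. Its signal was low, and it was not well above background on 1 array of each non-perfused group. In sucrose hearts it was -3.06, -3.03, -2.71, -3.14 and -2.77 with glucose and -3.12, -2.88, -3.07, -3.17 and -2.69 with mannitol, against -3.72, -3.42, -3.16, -3.30 and -3.21 without perfusion. The chow hearts had -3.13, -3.13, -3.14, -2.62 and -2.96 with glucose and -3.03, -2.92, -2.97, -2.80 and -3.06 with mannitol, against -3.35, -3.63, -3.42, -3.26 and -3.59 without perfusion. The groups overlapped narrowly in the sucrose mannitol comparison and were apart in the other 3.

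The rise of Slc25a1 was 0.42 ± 0.12 (SE, adjusted p = 0.0233) with glucose and 0.38 ± 0.12 (adjusted p = 0.0378) with mannitol in sucrose hearts. For chow hearts the rise was 0.46 ± 0.12 (adjusted p = 0.0113) with glucose and 0.49 ± 0.12 (adjusted p = 0.007) with mannitol. Within slides the difference was positive on all 4 slides in each comparison, from 0.16 to 0.83. The rise was smaller after normexp correction, which started from the median spot signal and added an offset of 50. It was then 0.16, 0.17, 0.25 and 0.27, and no comparison passed, with adjusted p from 0.287 to 0.626. In the authors' deposited values it was 0.52, 0.46, 0.26 and 0.52, again without a call. Over all 15 settings with a value the adjusted p reached 0.626, 0.601, 0.774 and 0.527. Without the 4 noisy arrays the chow differences of 0.41 and 0.45 were called, and the sucrose differences of 0.35 with glucose and 0.24 with mannitol were not. Leaving out sucrose non-perfused replicate 1 or 2 ended both sucrose calls. Sucrose glucose replicates 3 and 5 each decided the glucose call, sucrose non-perfused replicate 4 and sucrose mannitol replicates 2 and 5 the mannitol call, and chow glucose replicate 4 the chow glucose call. In these fits the adjusted p reached 0.129 at most.

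The other carboxylate carriers did not pass. Slc25a10, which exchanges malate or succinate for phosphate, differed by 0.11, -0.04, 0.07 and 0.09. Slc25a11, the oxoglutarate carrier of the malate-aspartate shuttle, had differences of -0.06, -0.03, 0.00 and -0.03 and group SDs of 0.03 to 0.11. Slc25a12 and Slc25a13, the aspartate-glutamate carriers of the same shuttle, had no matched probe. Slc25a21, which carries the longer oxodicarboxylates of lysine breakdown, differed by -0.05, -0.24, 0.26 and 0.01.

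Slc25a20, the carnitine-acylcarnitine exchanger that admits long-chain fatty acids for oxidation, differed by -0.02, 0.05, 0.03 and -0.06, with adjusted p from 0.841 to 0.958. Among amino acid carriers, Slc25a29, which carries basic amino acids, was called in chow glucose hearts. There it was -0.15, 0.23, -0.23, 0.16 and -0.12, against -0.57, -0.29, -0.40, -0.31 and -0.35 in chow non-perfused hearts, without overlap. The rise was 0.36 ± 0.11 (SE, adjusted p = 0.0283), it was positive on all 4 slides, and it was lost at 0.24 and 0.14 after normexp correction and in the authors' deposited values. Leaving out chow non-perfused replicate 1 or 3, or chow glucose replicate 2 or 4, also ended it, with differences of 0.30 to 0.41 over all fits that left out an array. Its other differences were 0.14, -0.08 and, with chow mannitol, 0.22. Slc25a22, a glutamate carrier, differed by 0.28, 0.19, -0.10 and 0.10, and Slc25a44, a carrier of branched-chain amino acids, by 0.09, 0.04, 0.04 and 0.10. The glycine carrier Slc25a38 lay between -0.10 and 0.04.

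Of the nucleotide and cofactor carriers, Slc25a33, which brings pyrimidine nucleotides into the matrix, was higher on average with every perfusion and was called in 1 comparison. In sucrose hearts it was -0.08, -0.16, -0.73, -0.10 and 0.19 with glucose, against -0.43, -0.94, -1.37, -0.74 and -0.85 without perfusion. Only sucrose glucose replicate 3, at -0.73, fell into the range of the non-perfused hearts. The rise was 0.69 ± 0.18 (SE, adjusted p = 0.0137), and within slides it was 0.64 to 0.78. With mannitol the sucrose difference was 0.37 (adjusted p = 0.226). In chow hearts it was 0.36 with glucose (adjusted p = 0.264) and 0.54 with mannitol (adjusted p = 0.0669). The chow mannitol groups did not overlap, and that difference passed with slide as a fixed block, at 0.56 and adjusted p = 0.0174. The called rise was lost after normexp correction (0.57, adjusted p = 0.104) and without sucrose non-perfused replicate 3 (adjusted p = 0.0555). It was also lost in the authors' deposited values, with the mean of the gene's probes and with only the groups compared. Over the 16 other settings and the 30 fits that left out an array, the adjusted p of the sucrose glucose rise was 0.00242 to 0.455. That of the chow mannitol difference was 0.0174 to 0.928. A second probe, well above background on 26 of 30 arrays, gave 0.17, 0.29, 0.75 and 0.69, none of them called. Its relative Slc25a36 had no matched probe.

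The coenzyme A carriers Slc25a42 and Slc25a16 differed by 0.05, -0.14, -0.09 and -0.06, and by -0.14, -0.21, -0.13 and -0.22, without a call. Their second probes gave 0.33, 0.07, 0.19 and 0.16 for Slc25a42, and 0.16, -0.01, 0.01 and 0.02 for Slc25a16. The glutathione carrier Slc25a39 and the NAD carrier Slc25a51 lay between -0.23 and -0.10 in the 4 comparisons. A second Slc25a39 probe gave -0.20, -0.21, 0.09 and 0.03. The peroxisomal member Slc25a17 and the folate and FAD carrier Slc25a32 lay between -0.29 and 0.29. None of these was called.

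The iron carriers of the family, mitoferrins Slc25a37 and Slc25a28, supply iron for heme and iron-sulfur clusters, Slc25a37 being the one best known from red cell precursors. Slc25a37 was well above background on 23 of 30 arrays. It averaged -3.76 ± 0.60 with glucose, -4.29 ± 0.37 with mannitol and -4.23 ± 0.31 without perfusion in sucrose hearts, and -3.88 ± 0.26, -3.99 ± 0.17 and -4.24 ± 0.34 in the same states of chow hearts (SD, n = 5). Its differences of 0.47, -0.06, 0.36 and 0.25 did not pass, while Alas2, the red cell form of the first enzyme of heme synthesis, differed by -5.95, -5.77, -5.66 and -5.23 in the same comparisons (adjusted p = 1.4e-12, 2.35e-12, 2.88e-12 and 1.77e-11). Alas2 was well above background on only 3, 2, 3 and 4 of the 5 arrays of these perfused groups, so its falls ended near background. Slc25a28, the mitoferrin expressed widely, differed by 0.09, 0.04, 0.28 and 0.22 at its brightest probe, without a call. With slide as a fixed or a random block the chow glucose difference of 0.28 was called (adjusted p = 0.0161 and 0.0297), and over the 16 other settings its adjusted p was 0.000295 to 0.89. Its second probe was called in both chow comparisons, at 0.49 ± 0.10 with glucose (SE, adjusted p = 0.00152) and 0.42 ± 0.10 with mannitol (adjusted p = 0.00785). In sucrose hearts that probe gave 0.24 and 0.23, at adjusted p = 0.172 and 0.164. The mean of the gene's probes was called in both chow comparisons, at 0.39 with glucose (adjusted p = 0.000295) and 0.32 with mannitol (adjusted p = 0.00298).

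The only member called lower in more than 1 comparison was Slc25a46, which sits in the outer membrane and acts in mitochondrial fission and membrane structure. In sucrose hearts it was 2.84, 2.72, 2.90, 2.74 and 2.56 with glucose and 2.62, 2.76, 2.80, 2.78 and 2.83 with mannitol, against 2.93, 3.04, 2.99, 3.11 and 3.12 without perfusion, without overlap. In chow hearts it was 2.94, 2.77, 2.87, 2.67 and 2.81 with glucose and 2.76, 2.96, 2.72, 2.56 and 2.82 with mannitol, against 3.09, 3.05, 2.82, 2.95 and 3.15 without perfusion, and both pairs overlapped.

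Slc25a46 fell by 0.29 ± 0.08 (SE, adjusted p = 0.018) with glucose and by 0.28 ± 0.08 (adjusted p = 0.017) with mannitol in sucrose hearts. In chow hearts it fell by 0.25 ± 0.08 (adjusted p = 0.0461) with mannitol, and differed by -0.20 with glucose (adjusted p = 0.12). The chow mannitol call was near the threshold and was lost in 19 of the 30 fits that left out an array. Under normexp correction the differences were -0.27, -0.24 and, with chow mannitol, -0.32, none of them called. Without the 4 noisy arrays they were -0.29, -0.31 and -0.24, with adjusted p of 0.0674, 0.0613 and 0.104. Leaving out sucrose non-perfused replicate 5 or sucrose glucose replicate 5 ended the sucrose glucose call (adjusted p up to 0.0661), and leaving out sucrose mannitol replicate 1 the mannitol call (0.0515).

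Slc25a35, a carrier whose substrate is not established, was -0.20, -0.12, -0.44, -0.26 and -0.26 in sucrose mannitol hearts, against -0.18, 0.12, 0.14, 0.12 and 0.16 in sucrose non-perfused hearts. It fell by 0.33 ± 0.10 (SE, adjusted p = 0.0249), and only sucrose non-perfused replicate 1, one of the noisy arrays, lay within the range of the mannitol hearts. The call was lost without the 4 noisy arrays (-0.38, adjusted p = 0.0504), and without any of sucrose non-perfused replicates 2 to 5 or sucrose mannitol replicate 3, where the adjusted p reached 0.0779. Slc25a34, its nearest relative, differed by -0.29 with chow mannitol (adjusted p = 0.0558) and by -0.10, -0.07 and -0.10 in the other comparisons. Slc25a14 and Slc25a30, relatives of the uncoupling proteins, lay between -0.10 and 0.10. Slc25a45 and Slc25a54, above background on 21 and 19 of 30 arrays, had differences of 0.08 to 0.55 and 0.01 to 0.90, none of which passed. The 0.90 was that of sucrose mannitol hearts, at -5.29, -4.00, -4.09, -0.91 and -5.08, with replicate 4 far above the rest. The sucrose non-perfused hearts had -5.38, -4.17, -5.09, -4.96 and -4.29.

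**Figure D3:**
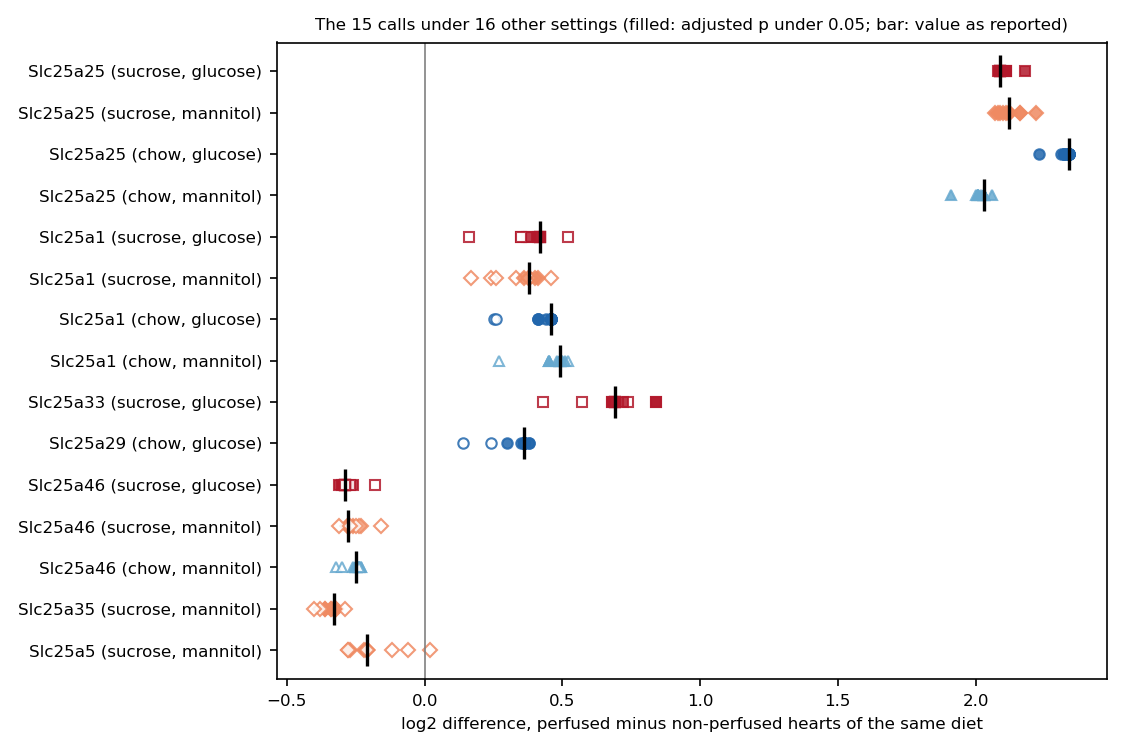
Log2 difference (x axis) of each of the 15 calls (y axis, gene with diet and buffer) under 16 other settings of the processing, filled where the adjusted p stayed under 0.05, with the value as reported as a black bar. The 4 calls of Slc25a25 stay filled under every setting drawn, and the other 11 are each open under at least 2.

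The 8 members that were matched but too dim to test were Slc25a2, Slc25a15, Slc25a18, Slc25a27, Slc25a41, Slc25a43, Slc25a47 and Slc25a53. They were well above background on 0 to 10 of 30 arrays each. Besides those named above, Slc25a6, Slc25a26, Slc25a31, Slc25a40, Slc25a48 and Slc25a52 had no matched probe. The 5 tested members not well above background on all 30 arrays were Slc25a1, Slc25a32, Slc25a37, Slc25a45 and Slc25a54.

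Glucose in the buffer, compared with mannitol, moved no member past the threshold. The comparison sets glucose against mannitol, with ketone bodies and propionate present in both buffers. In chow hearts the buffer cannot be told apart from slide row, and averaged over the diets it coincides with row in part. In sucrose hearts 0 of 31 members were called, against 0.00545% of all genes, and 2 had an unadjusted p under 0.05, where 5.06% of all genes did. The smallest p values were those of Slc25a37 (0.53, adjusted p = 0.97) and Slc25a29 (0.22, adjusted p = 0.986). In chow hearts 0 members and 0% of genes were called, and 3 members had an unadjusted p under 0.05, where 3.9% of genes did. These were Slc25a3 (-0.23), Slc25a21 (0.25) and Slc25a25 (0.31), all at adjusted p = 0.999. For Slc25a25 the 95% interval of the chow difference was 0.00 to 0.62, and glucose and mannitol hearts overlapped.

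Averaged over the diets, 0 members and 0.00545% of genes were called for glucose, and 2 members had an unadjusted p under 0.05, where 3.59% of genes did. The smallest were Slc25a21 (0.22), Slc25a29 (0.18) and Slc25a37 (0.32), all at adjusted p = 0.999. For 27 of 31 members the 95% interval of the averaged difference lay within 0.5 of 0 on the log2 scale. A p that misses the threshold does not show that the levels were equal, and the intervals give the sizes that remain possible.

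**Figure D4:**
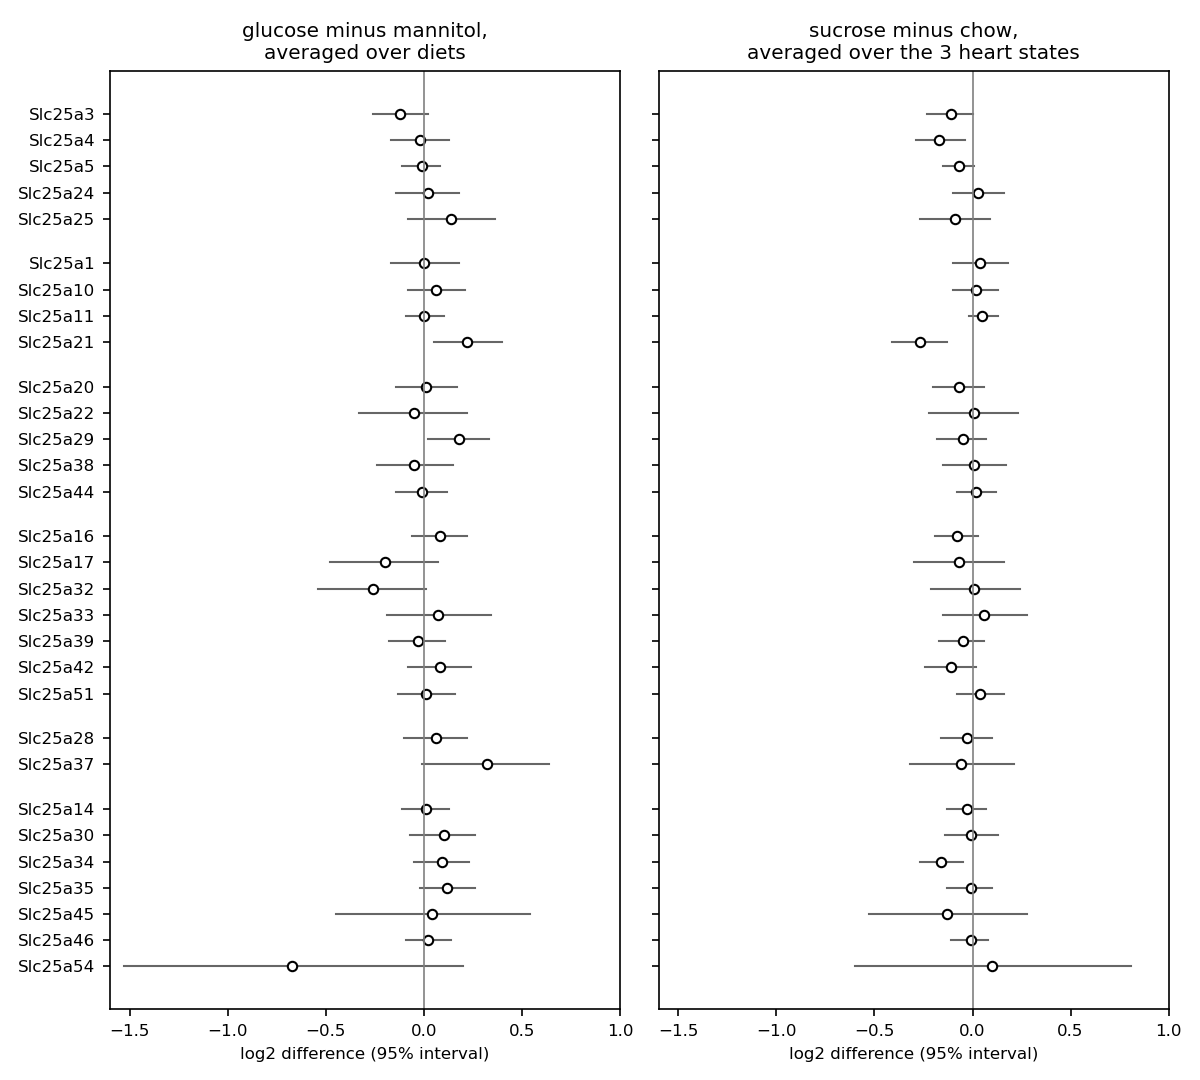
Log2 difference with its 95% interval (x axis) for 30 tested Slc25a genes (y axis), for glucose minus mannitol hearts averaged over diets (left) and sucrose minus chow hearts averaged over the 3 heart states (right). No gene passed in either comparison, and Slc25a21 shows the smallest p in both, at 0.22 and -0.27.

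The sucrose diet, compared with chow, likewise gave 0 called members in each state. In glucose-perfused hearts, where 0% of genes were called, 2 members had an unadjusted p under 0.05, beside 4.39% of genes. The smallest p values were those of Slc25a21 (-0.39), Slc25a34 (-0.23) and Slc25a25 (-0.29), all at adjusted p = 0.999. In mannitol-perfused hearts, where 0.00545% of genes were called, 4 members had an unadjusted p under 0.05, beside 7.94% of genes, and here diet nearly coincided with slide row. There the smallest were Slc25a3 (-0.28), Slc25a21 (-0.34) and Slc25a5 (-0.19), at adjusted p = 0.457, 0.482 and 0.482. In non-perfused hearts, where 0% of genes were called, 1 member had an unadjusted p under 0.05, beside 3.34% of genes. This was Slc25a34 (-0.23), followed by Slc25a5 (0.08) and Slc25a42 (-0.13), all at adjusted p = 1.

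Averaged over the 3 states, 0 members and 0.00545% of genes were called for diet, and 3 members had an unadjusted p under 0.05, where 6.51% of genes did. Slc25a21 had the smallest p (-0.27, adjusted p = 0.394), followed by Slc25a34 (-0.16, adjusted p = 0.638) and Slc25a4 (-0.17, adjusted p = 0.666). The Slc25a21 signal in sucrose hearts was -2.52, -2.54, -2.73, -2.45 and -2.93 with glucose and -2.78, -2.98, -2.53, -2.93 and -2.93 with mannitol. In chow hearts it was -2.19, -2.11, -2.27, -2.20 and -2.43 with glucose and -2.25, -2.16, -2.65, -2.90 and -2.50 with mannitol. Without perfusion it was -2.33, -2.69, -2.62, -2.68 and -2.61 in sucrose hearts, against -2.60, -2.38, -2.64, -2.33 and -2.57 in chow hearts. Sucrose and chow hearts were apart with glucose and overlapped with mannitol and without perfusion. The averaged difference was negative on all 4 full slides, from -0.53 to -0.11.

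Whether diet changed the response to perfusion was tested as an interaction, and 0 members and 0% of genes were called in each of the 3 interactions. For the mannitol response 1 member had an unadjusted p under 0.05, where 6.17% of genes did, and the smallest were Slc25a5 (-0.27), Slc25a3 (-0.28) and Slc25a29 (-0.31), with adjusted p from 0.754 to 0.806. For the glucose response 0 members did, where 2.62% of genes did, and the smallest were Slc25a5 (-0.19), Slc25a21 (-0.31) and Slc25a32 (0.41), all at adjusted p = 1. For glucose against mannitol 0 members did, where 5.01% of genes did, and among the smallest were Slc25a33 (0.50) and Slc25a3 (0.22), both at adjusted p = 0.998. The Slc25a5, Slc25a35 and Slc25a29 calls in 1 diet are therefore not shown to differ between diets.

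Genes that work beside the carriers were read from 7 lists, of which 47 genes were tested. In sucrose glucose hearts 0 of the 47 rose and 1 fell, where 5.54% of all tested genes rose and 3.14% fell. In sucrose mannitol hearts 0 rose and 6 fell, where 5.53% of genes rose and 5.67% fell. In each chow comparison 1 rose and 2 fell, where 5.47% of genes rose and 4.04% fell with glucose, and 4.83% rose and 3.65% fell with mannitol. Alas2 was among those that fell in each, and it is also one of the red cell markers. Of 4 tested carrier relatives with other symbols, Ucp2, an uncoupling protein, fell in chow hearts by 0.86 with glucose (adjusted p = 0.0186) and 1.03 with mannitol (adjusted p = 0.00474). Its chow signal was -0.31, 0.26, 0.36, 0.46 and 0.24 with glucose and 0.39, -0.10, 0.40, -0.35 and -0.19 with mannitol, against 1.17, 1.13, 1.36, 1.56 and 0.08 without perfusion, and replicate 5 of the non-perfused hearts lay within the perfused range. In sucrose hearts Ucp2 averaged 1.02 ± 0.22 with glucose and 1.03 ± 0.46 with mannitol, against 1.11 ± 0.33 without perfusion (SD, n = 5), and was not called.

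In sucrose mannitol hearts 5 genes besides Alas2 fell, each by a small amount. They were Mtch1, a carrier-like protein of the outer membrane (-0.21, adjusted p = 0.0134), Vdac3, an outer membrane pore (-0.23, adjusted p = 0.00833), and Timm10b, a chaperone subunit of the import route that carriers use (-0.27, adjusted p = 0.00996). The others were the respiratory chain subunits Cox4i1 (-0.22, adjusted p = 0.036) and Ndufv1 (-0.23, adjusted p = 0.0423). In the same comparison the median of the 16 mitochondrial content genes was -0.13, beside -0.04 for all genes. The median of the 9 cardiomyocyte markers was -0.25 there, and 1 of them, Pln, was called lower, by 0.34 (adjusted p = 0.0101). There 3 of 5 macrophage markers rose, Mrc1 by 1.55, Cd163 by 0.72 and Adgre1 by 0.65 (adjusted p = 0.000858, 0.0274 and 0.0162). Of 5 tested fibroblast markers Dcn rose, by 0.39 (adjusted p = 0.0045). In sucrose glucose hearts, where Slc25a25, Slc25a1, Slc25a33 and Slc25a46 were called, Mrc1 rose by 1.18, Adgre1 by 0.73 and Dcn by 0.33 (adjusted p = 0.0121, 0.00787 and 0.0196). No macrophage or fibroblast marker was called in the chow comparisons. The summed macrophage signal was 1.97 to 2.66 with mannitol and 2.11 to 2.46 with glucose in sucrose hearts, against 1.5 to 1.93 without perfusion. The part of cell make-up in the carriers called in sucrose hearts was not tested. Ppargc1b, a coactivator of mitochondrial genes, rose by 0.38 with each buffer in chow hearts (adjusted p = 0.0256 with glucose and 0.031 with mannitol). The 4 malate-aspartate partners and the 4 acylcarnitine transport partners gave 0 calls in the 4 comparisons, and none of the 47 list genes was called for glucose, diet or their interactions.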

How the data were processed

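RNA of each heart was hybridised to 1 one-colour Agilent rat array. The deposited files held spot intensity from Agilent Feature Extraction 11.0.1.1, per the file headers (10.3 per the submitters' processing notes), background-subtracted and detrended. The authors' deposited log2 table, array-centred, was used only as an alternative. Spots flagged as outliers were left out, unless all spots of a probe were flagged, and the intensity of the others was averaged per probe. Log2 values minus each array's 75th percentile were then computed, and the brightest probe stood for a gene. Through the probes' accessions 18355 of 30367 probes had a symbol. The limma package, version 3.58.1 under R 4.3.3, fitted 1 mean per group of 5 arrays, and p was adjusted over 18333 genes in each of 14 comparisons. The fit was run on simulated data with independent arrays, which cannot test it for arrays that correlate within a slide. Named were all called members, the 3 smallest p where none passed, and a fixed set of carriers. One tested member enters the counts and is not reported here. Members and lists were chosen with earlier results of these data known. Alternatives covered background, normalization, filters, probes, slides, replicate numbers and left-out arrays. The number of arrays limits precision.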

Additional observations from a re-analysis of the deposited data

Results flagged for a closer look

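Within each group of 5 arrays, the highest or lowest array was set against the others by Dixon's ratio of gap to range. Of 180 groups of values, 11 had an array past the 95% critical value, or 6.11%, where chance alone gives about 1 in 20.

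Among members with a call, Slc25a25 was 3.86 in chow glucose replicate 4, against 3.29 in the next array. Slc25a35 was -0.18 in sucrose non-perfused replicate 1, where the next array was 0.12, and -0.44 in chow mannitol replicate 4, where the next was -0.12. Among carboxylate carriers, Slc25a10 was -0.58 in sucrose glucose replicate 3 (next -0.71) and -1.12 in chow non-perfused replicate 1 (next -0.83). Slc25a11 was 5.10 in chow mannitol replicate 2 (next 4.93), and Slc25a21 was -2.33 in sucrose non-perfused replicate 1 (next -2.61).

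Slc25a22 was 0.84 in sucrose glucose replicate 3 (next 1.77). Slc25a37 was -4.35 in chow glucose replicate 3 (next -3.82). Slc25a32 was -2.54 (next -3.51) and Slc25a45 was -5.64 (next -4.46) in chow non-perfused replicate 2. That array and sucrose non-perfused replicate 1 are among the 4 with noisy negative controls.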

How the results depend on the processing

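The 4 calls of Slc25a25 held under all 16 other settings and in all 30 fits that left out an array. Of the other 11 calls, 0 held under normexp background correction or in the authors' deposited values, 1 when only the groups compared were fitted and 6 under quantile normalization, which reversed Slc25a5 in sucrose mannitol hearts to 0.02. In the order sucrose glucose, sucrose mannitol, chow glucose and chow mannitol, 4, 5, 3 and 3 members were called. Leaving out each array in turn gave 2 to 4, 2 to 5, 1 to 3 and 2 to 4, and 0 to 0 in the 10 glucose, diet and interaction comparisons. In sucrose glucose hearts the count was 1 under normexp, the authors' values and only the groups compared, and 2 without the 4 noisy arrays, with or without the array alone on its slide. In sucrose mannitol hearts it was 1 under those same 3 settings, 2 under quantile normalization, 3 with no filter, 3 without the lone array, 2 without the noisy arrays and 1 without both. In chow glucose hearts it was 1 under normexp, the authors' values and only the groups compared. In chow mannitol hearts it was 1 in the authors' values and 5 with slide as a fixed or as a random block. The settings without noisy arrays were chosen after seeing the data. The causes of these changes were not tested, beyond fewer arrays in those that leave arrays out.

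Over all genes 1592, 2054, 1742 and 1556 were called, against 848, 967, 969 and 843 under normexp and 447, 413, 421 and 361 in the authors' values. In sucrose mannitol hearts 1088 were called with only the groups compared, 1270 without the noisy arrays and 1034 without the lone array too. The percent of calls that were higher was 63.8, 49.4, 57.5 and 56.9, and 91.7, 88.9, 72.0 and 86.1 in the authors' values. It was 70.4 under normexp in chow glucose hearts and 62.1 with only the groups compared in sucrose mannitol hearts. The authors' values moved the median of all genes by 0.11 in the sucrose glucose comparison. For diet averaged over states, where 1 gene was called, other settings called up to 8, and for sucrose glucose against chow glucose, where 0 were, array weights called 3.

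The replicate block gave 4, 5, 3 and 2 members, the loss being Slc25a46 in chow mannitol hearts (adjusted p = 0.0701), and changed no other call. Residuals of same-numbered arrays correlated at -0.0366 on average, with a lowest pair at -0.329. These values show no shared signal by number, and cannot show whether same-numbered hearts were paired in the experiment. Arrays of 1 slide correlated at 0.204. Signal near background limits Slc25a1, Slc25a32, Slc25a37, Slc25a45 and Slc25a54.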
